A study of Homo sapiens with 10 samples.

Results

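WNT ligands, their receptors and the regulators of the pathway were followed in U2OS cells, an established human osteosarcoma line, after knockdown of 2 histone H2A.Z paralogs, H2A.Z.1 and H2A.Z.2. Genes were chosen by a rule on their symbols, with earlier results of these data known. The rule took the WNT, FZD, DKK, SFRP, RSPO, AXIN, ROR, LRP5 and LRP6 families, CTNNB1, APC, FRZB, WIF1, NKD1, NKD2, RNF43, ZNRF3, LGR4, LGR5 and the TCF/LEF factors. These genes made up 57 of the 23089 in the count table. Cells were transfected for 3 days with an siRNA against H2A.Z.1 (siH2A.Z1), an siRNA against H2A.Z.2 (siH2A.Z2), both together, or either of the control siRNAs numbered 3 and 4 in the labels (siCtrl 3 and siCtrl 4). Total RNA depleted of ribosomal RNA was sequenced with strand information, with 2 libraries for each of the 5 conditions. All conditions share the same parental line and 1 siRNA per target, and nothing in the labels says that replicates came from separate cultures, so p-values measure only the spread between these libraries, which may be technical.

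The libraries held 16716990 to 26946836 counts, and the 57 genes together took 0.135% (siH2A.Z1 replicate 2) to 0.178% (siH2A.Z2 replicate 2) of them. H2AFZ, which encodes H2A.Z.1, fell to 19.9 and 19.1 CPM (read counts scaled to a common library size, with TMM factors) with siH2A.Z1, from 203 to 280 CPM in the 4 control libraries. H2AFV, which encodes H2A.Z.2, stood at 61.9 and 65.8 CPM with siH2A.Z2 against 143 to 249 CPM in the controls. Its difference did not pass edgeR's test (log2 fold change −1.59, adjusted p = 0.0754) but passed that of DESeq2, and H2AFV was lower with siCtrl 4 than with siCtrl 3 (log2 difference −0.75). Among osteoblast lineage markers, COL1A1 (the main chain of type I collagen) and RUNX2 were detected, whereas SP7 and BGLAP were near 0. Of the 4 blood cell markers, CD3E had at most 0.0222 CPM as a condition mean, whereas CD68 averaged 9.06 CPM with siCtrl 4. The summed level of these 4 was 2.58 to 9.34 CPM in the controls. With siH2A.Z1, 2 of 6 tested osteoblast markers, ALPL and COL1A1, fell and none was called higher. RUNX2 (log2 fold change 0.57), COL1A2 (−1.37) and SPP1 (−1.18) were not called. Also lower were 2 of 4 tested epithelial markers (CDH1 and CLDN4) and 1 of 2 endothelial markers (PECAM1). Over all genes tested with siH2A.Z1, 12.2% were called higher and 15.7% lower. CDH1, on 7 and 9 counts with siH2A.Z1, and PECAM1, on 0 and 5, passed edgeR's filter on low counts through the controls. Their calls follow in part from that filter and are not read as a result. The summed level of the 5 epithelial markers was 94.9 to 172 CPM in the controls and 72.8 to 79.5 CPM with siH2A.Z1. Most of that sum was KRT8, which was not called. It averaged 71.6 CPM with siH2A.Z1, 72.9 with siCtrl 3 and 143 with siCtrl 4. The summed endothelial markers were at most 2.32 CPM in any library. The part of these shifts in the results on WNT genes was not tested, and in a bulk culture fewer cells of a kind and less RNA per cell cannot be told apart.

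WNT proteins are secreted lipid-modified ligands that bind Frizzled (FZD) receptors together with the co-receptors LRP5 and LRP6. Without a ligand, β-catenin (CTNNB1) is marked for degradation by a complex built on AXIN and APC. With a ligand it accumulates and joins TCF/LEF factors on DNA, where it drives targets that include the pathway's own inhibitors AXIN2, NKD1, RNF43 and ZNRF3. RNF43 and ZNRF3 are membrane ubiquitin ligases that remove FZD proteins from the cell surface, and R-spondins bound to LGR receptors hold these ligases back. Ligands such as WNT5A and WNT5B can also act through ROR receptors without β-catenin. In bone-forming cells the pathway is known for its part in lineage choice and matrix production.

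The siRNA guides are shown because their seeds (positions 2 to 8, in capitals) can also pair with other transcripts. Over the transcripts of GENCODE v44, the full siRNA sequences matched the transcripts of H2AZ1 and of H2AZ2 (the current symbols of H2AFZ and H2AFV) and of no other gene.
H2A.Z.1 guide: cUCAAUCAaaacccacuac
H2A.Z.2 guide: uCAACACAcaacugucacc

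A perfect match to the H2A.Z.1 seed was present in an annotated 3′UTR of 6 of the 57 genes (10.5%), against 13.7% of the 13474 genes that averaged 10 or more counts. These were APC, DKK3, FRZB, FZD1, FZD3 and ROR1. The H2A.Z.2 seed matched 14 of the 57 genes (24.6%) and 22.6% of all. The matches for the H2A.Z.1 seed in 4 of the genes are shown (hg38, match in capitals), since with siH2A.Z1 their RNA moved in different directions: APC and DKK3 fell, FZD1 rose, and ROR1 did not pass the test. Of the matched genes not shown, FZD3 had 3 matches in its 3′UTR and fell with siH2A.Z1, and FRZB was not called. The part of seed pairing in these values was not tested.
APC, chr5:112846129-112846149, plus strand: tttgaaaTGATTGAcctttaa
DKK3, chr11:11962069-11962089, minus strand: caaaaaaTGATTGAaaacatt
FZD1, chr7:91268886-91268906, plus strand: attgttgTGATTGAcatttgt
ROR1, chr1:64179306-64179326, plus strand: attatatTGATTGAatttaga

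Of the 57 genes, 41 reached a mean of at least 1 CPM over the 10 libraries, and 10 had no library with as many as 10 counts. Levels of different genes were compared as CPM per kilobase of annotated exon, as a mean ± SD over the 4 control libraries. The annotated length (11.96 kilobases for DKK3, 4.065 for FZD6) can exceed that of the RNA made in these cells. The order of genes depends on that length, and the SD does not include it. CTNNB1 was the highest at 41.0 ± 3.92, followed by the co-receptor LRP6 at 31.1 ± 5.07 and by FZD6 at 15.8 ± 4.17. Next came APC at 11.1 ± 0.842 and WNT5B at 11.0 ± 5.55, which did not differ beyond their spread. The place of WNT5B turned with the control siRNA: it averaged 6.36 with siCtrl 3, below FZD6 (19.4) and APC (11.2), and 15.6 with siCtrl 4, above FZD6 (12.3) and APC (11.1). DKK3, a divergent member of the Dickkopf family of secreted proteins, followed at 8.24 ± 0.271, and TCF7L2 led the TCF/LEF factors at 6.36 ± 0.190. WNT5B was the leading ligand, with WNT3 (2.12 ± 0.188), WNT5A (1.90 ± 0.563) and WNT10B (1.25 ± 0.0851) after it. WNT3 was above WNT5A with siCtrl 3 (2.17 against 1.47) and below it with siCtrl 4 (2.08 against 2.32). RNF43 was low at 0.431 ± 0.0216, well below its paralog ZNRF3 at 4.72 ± 0.606. The plot of levels by role also shows genes whose control libraries fell into separate pairs, such as FZD8, DKK2 and SFRP4.

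**Figure D1:**
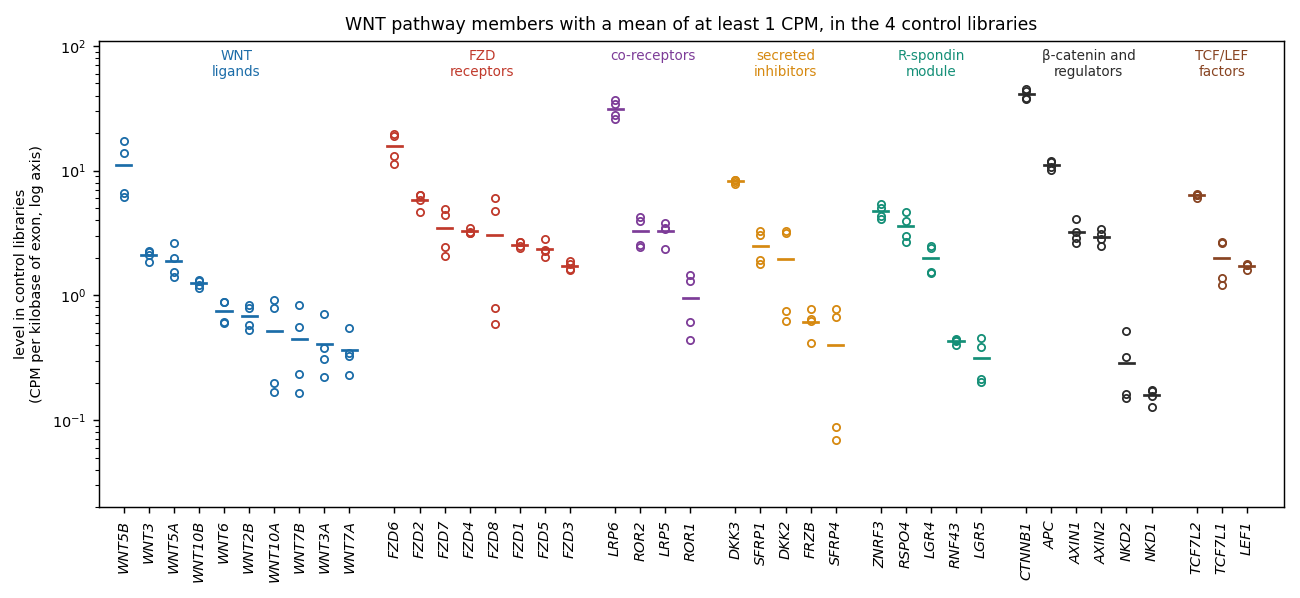
Level of the 41 genes whose mean reached 1 CPM, in CPM per kilobase of exon on a log axis, grouped by role. Each circle is 1 of the 4 control libraries and each line is their mean. CTNNB1 (41.0), LRP6 (31.1) and FZD6 (15.8) stand highest, and FZD8, DKK2 and SFRP4 have 2 libraries far from the other 2.

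The 16 genes below 1 CPM were the ligands WNT1, WNT2, WNT4, WNT8A, WNT8B, WNT9A, WNT9B and WNT11, the receptors FZD9 and FZD10, the inhibitors DKK1 and WIF1, RSPO1, RSPO2 and RSPO3, and TCF7. Their means ran from 0.00402 CPM (WNT8A) to 0.725 CPM (WNT9A). WNT1 and WNT8A had no count in the controls. RSPO4 was the single R-spondin above 1 CPM, with 7.36 to 12.8 CPM in the control libraries. No further R-spondin passed the filter on low counts, so the ligands of LGR4 and LGR5 were represented here by RSPO4.

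The libraries of each depletion were set against the 4 controls in edgeR (quasi-likelihood test), and a gene was called at a Benjamini-Hochberg adjusted p under 0.05 (over all genes tested) and a fold change above 1.25. With siH2A.Z1, 15 of the 43 pathway genes tested were called, 4 of them higher and 11 lower. Over all 16112 genes tested, 12.2% were called higher and 15.7% lower. Receptors (FZD2, FZD3, FZD4), ligands (WNT5B, WNT7B, WNT10B), the R-spondin receptor LGR4, the inhibitors DKK3 and SFRP1, APC and TCF7L1 fell. RNF43, NKD1, FZD1 and WNT7A rose. The median log2 fold change of the 43 was −0.01, beside −0.02 over all genes.

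With siH2A.Z2, 1 of 43 genes was called, DKK3, which was higher, while 0.605% of all genes were called higher and 0.179% lower. With both siRNAs, 3 of 43 rose (RNF43, NKD1, FZD1) and 4 fell (DKK3, FZD3, TCF7L1, WNT10B), where 7.77% and 9.35% of all genes were called. Scaled by library size only, the combined depletion gave 5 higher and 3 lower. The median log2 fold change was 0.14 with siH2A.Z2 and 0.05 with both siRNAs, beside 0.00 and −0.01 over all genes. DESeq2 called 5 genes with siH2A.Z2 (AXIN2, DKK3, FZD6, LGR4 and LGR5, all higher), and with both siRNAs it called 11, adding AXIN2, ROR1, WNT5B and WNT7B to the 7. The shares over all genes given here are edgeR's, so these DESeq2 counts are not read as a result about the pathway genes. The depletions share their control libraries, so their values are given side by side and not as independent results.

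**Figure D2:**
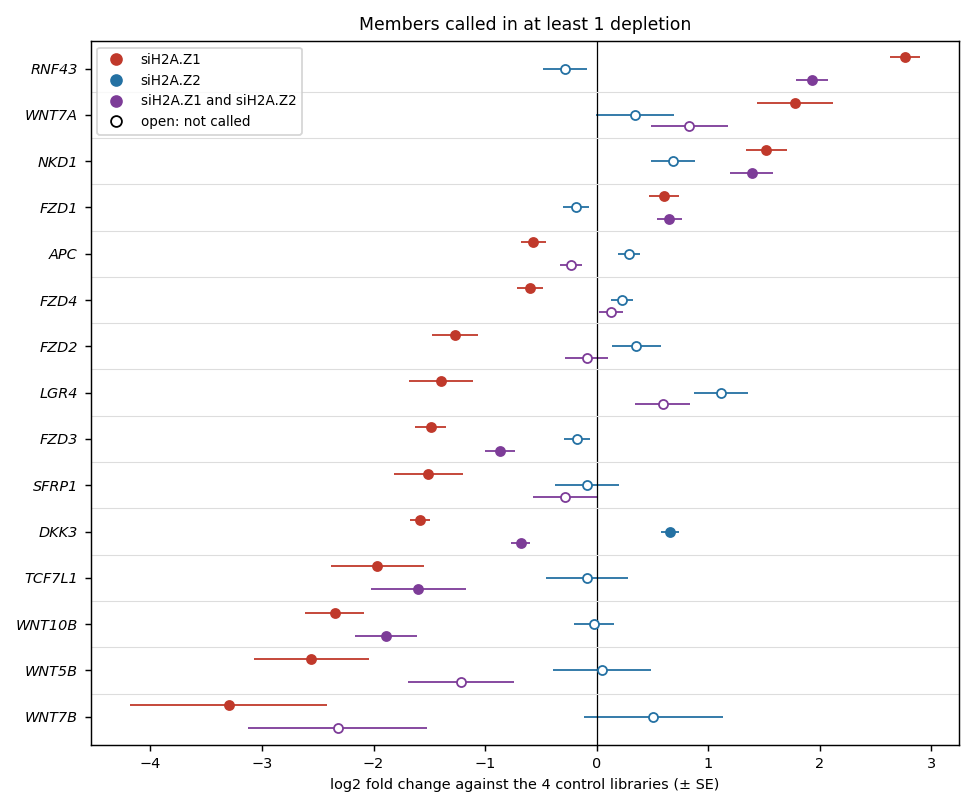
Log2 fold change (± SE) against the 4 control libraries for the 15 genes called in at least 1 depletion, ordered by the siH2A.Z1 value. Filled points were called and open points were not: RNF43 (2.76) and WNT7B (−3.30) mark the ends with siH2A.Z1, and the siH2A.Z2 points lie near 0 for RNF43, WNT10B and WNT5B.

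Among the R-spondin module, RNF43 had 2.74 and 2.78 CPM with siCtrl 3, 2.53 and 2.85 with siCtrl 4, 18.5 and 18.9 with siH2A.Z1, 1.89 and 2.51 with siH2A.Z2, and 10.9 and 9.59 with both siRNAs. The siH2A.Z1 and combined libraries lay above all control libraries and the siH2A.Z2 libraries below them. The increase was 6.79-fold with siH2A.Z1 (log2 fold change 2.76, SE 0.13, adjusted p = 0.000186) and 3.81-fold with both (1.93, SE 0.15, adjusted p = 0.00146). ZNRF3, which has the same activity, was not called: its libraries ran from 28.6 to 37.8 CPM in the controls and from 33.2 to 37.8 CPM with siH2A.Z1.

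LGR4, a receptor for R-spondins, had 15.8 and 15.2 CPM with siCtrl 3, 9.87 and 9.54 with siCtrl 4, 5.25 and 4.38 with siH2A.Z1, 25.1 and 28.5 with siH2A.Z2, and 18.4 and 18.9 with both. It fell by 1.40 on the log2 scale with siH2A.Z1 (SE 0.29, adjusted p = 0.0134). With siH2A.Z2 and with both siRNAs its libraries were above every control library, but those differences (1.11 and 0.59) did not pass the test (adjusted p = 0.114 and 0.14). LGR5, the stem cell marker of the same family, had 1.06 to 2.39 CPM in the controls, 0.974 and 1.10 with siH2A.Z1, and 3.54 and 4.80 with siH2A.Z2. By edgeR it was called in no depletion against the 4 controls, whereas DESeq2 called it with siH2A.Z2. RSPO4 was not called by edgeR in any depletion, with a log2 fold change of 0.00 (SE 0.24) with siH2A.Z1.

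Among the ligands, WNT5B had 28.0 and 26.0 CPM with siCtrl 3, 73.8 and 58.9 with siCtrl 4, 9.09 and 6.86 with siH2A.Z1, 48.5 and 46.4 with siH2A.Z2, and 17.8 and 21.7 with both. It fell 5.89-fold with siH2A.Z1 (log2 fold change −2.56, SE 0.51, adjusted p = 0.0126). With both siRNAs the value was −1.21 and was not called (adjusted p = 0.123), although both libraries lay below all 4 controls. WNT5A, its closest paralog, had 10.0 to 19 CPM in the controls and 8.60 and 7.43 with siH2A.Z1, a difference of −0.77 that missed the threshold (adjusted p = 0.0819) and that DESeq2 called.

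WNT10B, a ligand known for promoting bone formation over fat, had 3.17 and 3.44 CPM with siCtrl 3, 3.42 and 2.98 with siCtrl 4, 0.757 and 0.524 with siH2A.Z1, 3.34 and 2.93 with siH2A.Z2, and 1.07 and 0.625 with both. The siH2A.Z1 and combined libraries were below all others. WNT10B fell 5.10-fold with siH2A.Z1 (log2 fold change −2.35, SE 0.27, adjusted p = 0.00171) and 3.70-fold with both (−1.89, SE 0.28, adjusted p = 0.00828), on 11 to 24 counts in each of these libraries. WNT7B had 4.26 and 2.84 CPM with siCtrl 3, 0.845 and 1.18 with siCtrl 4, and 0.271 and 0.190 with siH2A.Z1, that is 5 and 4 counts. It fell by 3.30 on the log2 scale (SE 0.88, adjusted p = 0.0321), with the size set by few counts. WNT7B passed the filter on low counts through the control libraries, so its call follows in part from the filter.

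WNT7A was the ligand that rose: it had 1.56 and 1.04 CPM with siCtrl 3, 2.49 and 1.47 with siCtrl 4, 6.76 and 4.62 with siH2A.Z1, 1.97 and 2.13 with siH2A.Z2, and 2.81 and 2.95 with both. Its log2 fold change with siH2A.Z1 was 1.78 (SE 0.34, adjusted p = 0.0107). WNT7A and WNT7B are close paralogs, and with siH2A.Z1 they stood at opposite ends of the ligands. WNT2B, WNT3, WNT3A, WNT6, WNT9A and WNT10A were called by edgeR in no depletion against the 4 controls. WNT3, steady between control siRNAs at 10.1 to 12.3 CPM, had 12.7 and 14.4 with siH2A.Z1, 13.3 in both siH2A.Z2 libraries, and 14.9 and 14.8 with both.

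**Figure D3:**
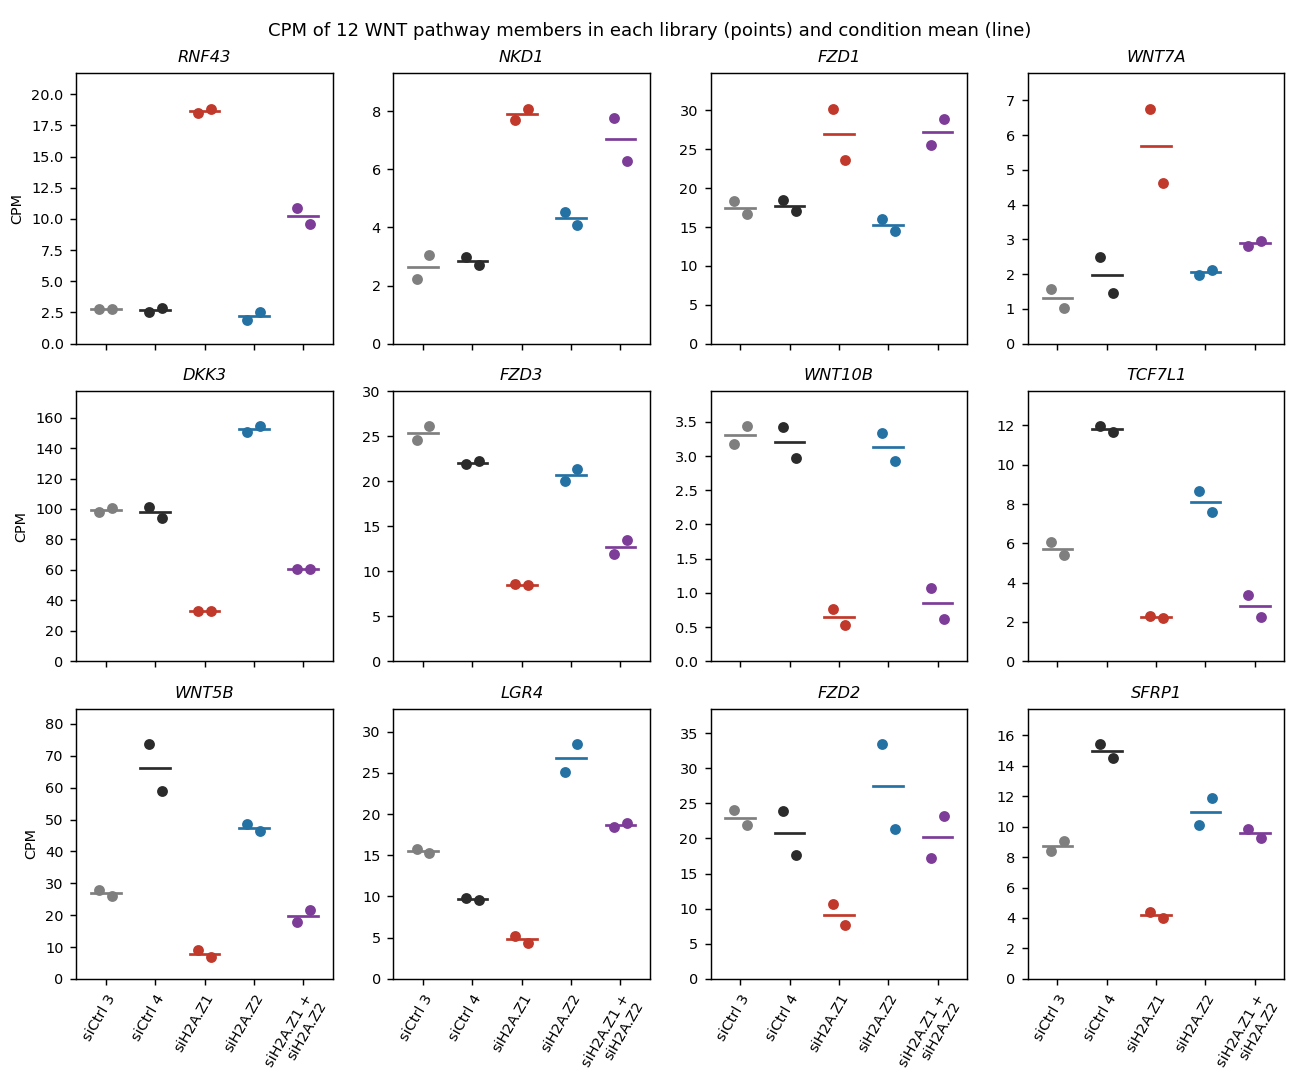
CPM (linear axes from 0) of 12 genes in each library, 2 points per condition, with the condition mean as a line. RNF43, NKD1, FZD1 and WNT7A are higher with siH2A.Z1 than in any control library, and the 8 genes in the other panels are lower. WNT5B, TCF7L1, LGR4 and SFRP1 also differ between the control siRNAs.

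Of the 10 FZD receptors, 8 passed the filter on low counts, and with siH2A.Z1 FZD1 rose while FZD2, FZD3 and FZD4 fell. FZD3 had 24.6 and 26.1 CPM with siCtrl 3, 21.9 and 22.3 with siCtrl 4, 8.60 and 8.43 with siH2A.Z1, 20.0 and 21.3 with siH2A.Z2, and 12 and 13.5 with both. It fell 2.80-fold with siH2A.Z1 (log2 fold change −1.49, SE 0.14, adjusted p = 0.000919) and 1.83-fold with both (−0.87, SE 0.13, adjusted p = 0.00931). The siH2A.Z2 libraries of FZD3 also lay below the controls, by a log2 difference of −0.17 that was not called (adjusted p = 0.566).

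FZD2 had 24.0 and 21.9 CPM with siCtrl 3, 23.9 and 17.6 with siCtrl 4, 10.7 and 7.62 with siH2A.Z1, 33.5 and 21.4 with siH2A.Z2, and 17.2 and 23.2 with both. It fell with siH2A.Z1 (−1.27, SE 0.21, adjusted p = 0.0062) and overlapped the controls in the other depletions. FZD4 went from 23.3 to 25.5 CPM in the controls to 14.9 and 17.0 with siH2A.Z1 (−0.60, SE 0.12, adjusted p = 0.0121). FZD1 had 16.6 to 18.5 CPM in the controls, 30.2 and 23.7 with siH2A.Z1, 16.0 and 14.4 with siH2A.Z2, and 25.5 and 28.9 with both, and rose by 0.60 (SE 0.14, adjusted p = 0.0184) and 0.65 (SE 0.11, adjusted p = 0.0131) in the depletions that included siH2A.Z1. FZD5, FZD6, FZD7 and FZD8 were not called by edgeR in any depletion against the 4 controls, and DESeq2 called FZD6 with siH2A.Z2.

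The co-receptors LRP5 and LRP6 and the tyrosine kinase receptors ROR1 and ROR2 were not called by edgeR in any depletion against the 4 controls. At an unadjusted p under 0.05 it gave 0, 2 and 1 of these 4 with siH2A.Z1, siH2A.Z2 and both. Over all genes tested it gave 6704 of 16112, 2223 of 16188 and 5540 of 16184. DESeq2 called ROR1 with both siRNAs and no other of these. LRP6 had 354 and 379 CPM with siCtrl 3, 268 and 288 with siCtrl 4, 245 and 258 with siH2A.Z1, 417 and 449 with siH2A.Z2, and 332 and 325 with both. The siH2A.Z1 libraries lay below all controls and the siH2A.Z2 libraries above them, by −0.37 and 0.45 on the log2 scale (adjusted p = 0.133 and 0.274). ROR1 was highest with both siRNAs, at 21.6 and 16.2 CPM against 2.93 to 9.78 in the controls, a log2 difference of 1.59 that missed the threshold (adjusted p = 0.0595).

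Among secreted inhibitors, DKK3 had 97.9 and 101 CPM with siCtrl 3, 101 and 94.3 with siCtrl 4, 33.2 and 33.0 with siH2A.Z1, 151 and 154 with siH2A.Z2, and 60.5 and 60.4 with both. No condition overlapped the controls. DKK3 fell 3.00-fold with siH2A.Z1 (log2 fold change −1.58, SE 0.09, adjusted p = 0.000332), rose 1.57-fold with siH2A.Z2 (0.65, SE 0.08, adjusted p = 0.0332) and fell 1.60-fold with both (−0.68, SE 0.09, adjusted p = 0.00546). The siH2A.Z2 call was lost when any 1 of the 6 libraries was left out and with the replicate number as a block (adjusted p = 0.108). SFRP1, a decoy receptor for WNT proteins, fell with siH2A.Z1 (−1.51, SE 0.31, adjusted p = 0.0136), from 8.41 to 15.4 CPM in the controls to 4.38 and 4.00. With both siRNAs it stood at 9.87 and 9.25 CPM, inside the control range. DKK2, FRZB and SFRP4 were not called by edgeR in any depletion against the 4 controls.

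CTNNB1 itself showed no called difference: its libraries ran from 441 to 535 CPM in the controls, and its log2 fold changes were −0.01, −0.05 and 0.05 (SE 0.11 each) with siH2A.Z1, siH2A.Z2 and both. APC, the scaffold of the destruction complex, had 145 and 160 CPM with siCtrl 3, 139 and 162 with siCtrl 4, 98 and 108 with siH2A.Z1, 173 and 191 with siH2A.Z2, and 129 and 125 with both. It fell by 0.57 on the log2 scale with siH2A.Z1 (SE 0.11, adjusted p = 0.011). AXIN1 and AXIN2 were not called by edgeR in any depletion against the 4 controls, and DESeq2 called AXIN2 with siH2A.Z2 and with both siRNAs. AXIN2, often read as a gauge of β-catenin activity, had 13 to 17.8 CPM in the controls, 17.6 and 16.1 with siH2A.Z1, 21.6 and 23.7 with siH2A.Z2, and 21.2 and 22.3 with both. Its difference with both siRNAs was 0.52 (SE 0.15, adjusted p = 0.0561).

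NKD1, a Dishevelled-binding inhibitor that is itself a target of the pathway, had 2.23 and 3.05 CPM with siCtrl 3, 2.98 and 2.69 with siCtrl 4, 7.68 and 8.09 with siH2A.Z1, 4.55 and 4.07 with siH2A.Z2, and 7.77 and 6.30 with both. All 6 depleted libraries lay above all 4 controls. NKD1 rose 2.87-fold with siH2A.Z1 (log2 fold change 1.52, SE 0.18, adjusted p = 0.00221) and 2.62-fold with both (1.39, SE 0.19, adjusted p = 0.00731), and the value of 0.68 with siH2A.Z2 was not called (adjusted p = 0.22).

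Among the TCF/LEF factors, TCF7L2 was level in all libraries, from 40.6 to 44 CPM. TCF7L1, which mostly represses targets, had 6.06 and 5.40 CPM with siCtrl 3, 12 and 11.7 with siCtrl 4, 2.33 and 2.19 with siH2A.Z1, 8.65 and 7.58 with siH2A.Z2, and 3.39 and 2.27 with both. It fell 3.91-fold with siH2A.Z1 (−1.97, SE 0.42, adjusted p = 0.015) and 3.03-fold with both (−1.60, SE 0.43, adjusted p = 0.0473). LEF1 stood at 8.54 to 9.49 CPM in the controls and at 7.32 and 6.09 with siH2A.Z2, below them all, with a log2 difference of −0.43 that was not called (adjusted p = 0.284). TCF7 had at most 6 counts summed over the 4 controls.

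The calls with siH2A.Z1 rested on both of its libraries: without either siH2A.Z1 replicate, 6 of the 15 genes remained called, when the remaining library was taken to vary like the controls. DKK3, FZD3, NKD1, RNF43 and WNT10B were kept under both omissions, with FZD2 (without replicate 1) or FZD1 (without replicate 2) as the sixth. WNT7B was also lost without siCtrl 3 replicate 2 and with the replicate number as a block (adjusted p = 0.0614). Without either replicate of the combined depletion, RNF43 was the 1 gene still called of the 7, and TCF7L1 was also lost without either siCtrl 4 replicate, with scaling by library size only and with the replicate block (adjusted p = 0.0919).

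The control siRNAs differed from each other at many of these genes. With siCtrl 4, 12 of 45 genes were higher and 7 lower than with siCtrl 3, in a fit of all 10 libraries, where 17.2% and 17.3% of all genes were called. FZD8 had 2.39 and 3.22 CPM with siCtrl 3 and 24.4 and 19.4 with siCtrl 4 (log2 difference 2.98, SE 0.22, adjusted p = 1.47e-06). DKK2 went from 2.70 and 3.27 to 13.7 and 14.3 CPM (2.24, SE 0.15, adjusted p = 6.84e-07), and SFRP4 from 2.35 and 2.73 to 0.311 and 0.245 CPM (−3.16, SE 0.31, adjusted p = 1.29e-05). WNT10A was also lower with siCtrl 4 (−2.21, SE 0.26, adjusted p = 5.52e-05), and ROR1 was higher (1.43, SE 0.19, adjusted p = 0.000134).

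The other genes higher with siCtrl 4 were FZD7 (1.05), NKD2 (1.41), ROR2 (0.71), RSPO4 (0.59), SFRP1 (0.78), TCF7L1 (1.04), WNT2B (0.57), WNT5A (0.66) and WNT5B (1.30), given as log2 differences. Lower were FZD6 (−0.66), LGR4 (−0.68), LGR5 (−1.03), LRP6 (−0.40) and WNT7B (−1.82). The calls of LGR5, NKD2 and WNT2B were lost without siCtrl 3 replicate 1, those of NKD2 and RSPO4 without siCtrl 3 replicate 2, that of NKD2 without siCtrl 4 replicate 1 and that of WNT2B without siCtrl 4 replicate 2. Which of the control siRNAs departed from untreated cells cannot be told apart, since no untransfected library was analysed here.

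**Figure D4:**
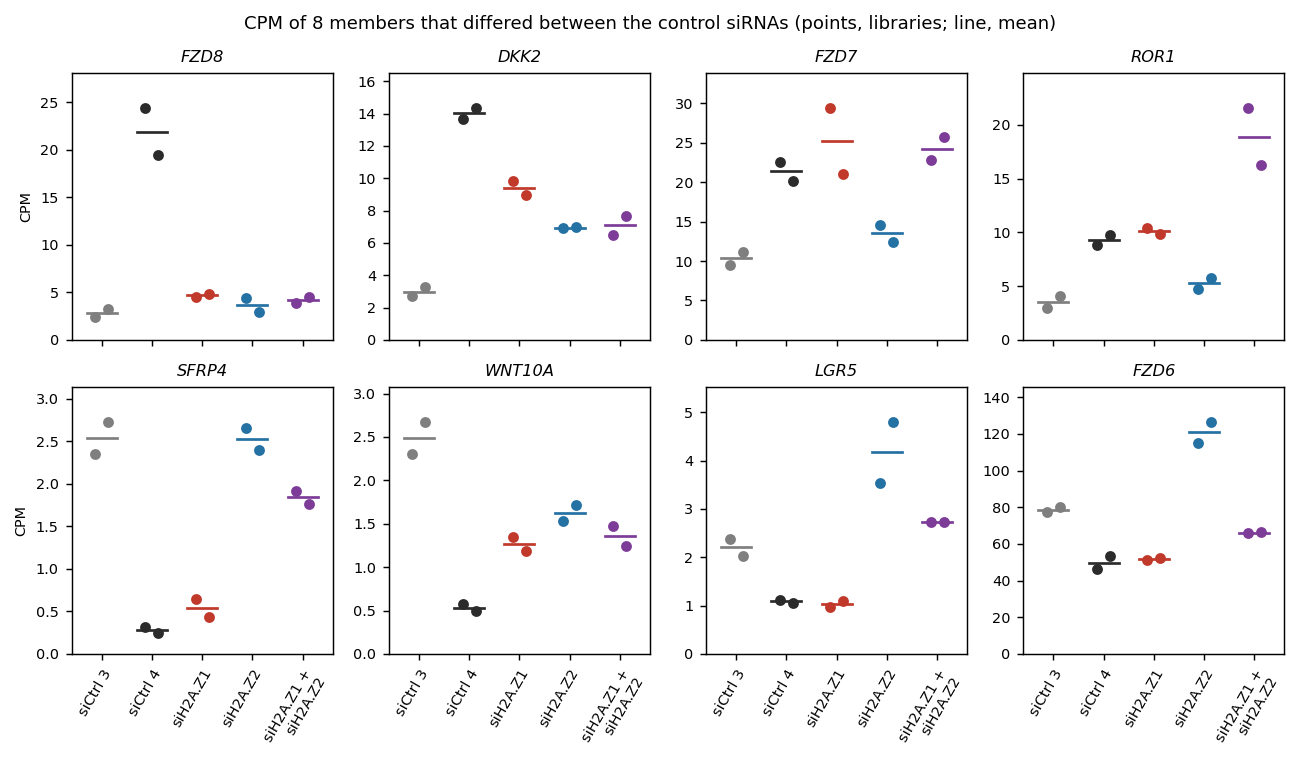
CPM (linear axes from 0) of 8 genes that differed between siCtrl 3 and siCtrl 4, in each library (points) and as condition means (lines). In FZD8 the siCtrl 4 libraries (24.4 and 19.4 CPM) stand above all other libraries, and in DKK2 and WNT10A the depleted libraries lie between the control siRNAs.

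Each depletion was therefore also compared with each control siRNA alone. Called in the same direction against both were 16 of 41 genes with siH2A.Z1 (4 higher, 12 lower), where 31.6% of all genes were. These were the 15 genes above and WNT5A (−0.40 against siCtrl 3, −1.06 against siCtrl 4). RNF43 (2.75 and 2.79), DKK3 (−1.59 and −1.57), WNT10B (−2.37 and −2.33) and APC (−0.57 and −0.55) had nearly the same log2 fold change against either, whereas WNT5B (−1.77 and −3.06), TCF7L1 (−1.36 and −2.39) and WNT7B (−3.95 and −2.13) did not. With siH2A.Z2, 6 of 43 were called against both controls, all higher, where 5.54% of all genes were: AXIN2 (0.44 and 0.74), DKK3 (0.64 and 0.67), FZD6 (0.64 and 1.31), LGR4 (0.81 and 1.49), LGR5 (0.93 and 1.97) and NKD1 (0.75 and 0.63).

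With both siRNAs, 12 of 43 were called against both controls, beside 23.4% of all genes. AXIN2, FZD1, NKD1, RNF43, ROR1 and WNT3 were higher, and DKK3, FZD3, TCF7L1, WNT10B, WNT5B and WNT7B were lower. The call turned with the control chosen for 3 genes with siH2A.Z1, 2 with siH2A.Z2 and 3 with both. With siH2A.Z1, DKK2 was higher than siCtrl 3 (1.66) and lower than siCtrl 4 (−0.58), FZD8 likewise (0.76 and −2.22), and WNT10A the other way round (−0.97 and 1.24). With siH2A.Z2, DKK2 (1.25 and −0.98) and WNT5B (0.84 and −0.45) were higher than siCtrl 3 and lower than siCtrl 4. With both siRNAs the genes were again DKK2 (1.27 and −0.95), FZD8 (0.61 and −2.36) and WNT10A (−0.83 and 1.39). No direction is given for these cases.

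Contrasts between depletions use no control library as their reference. Between siH2A.Z1 and siH2A.Z2, 29 of 45 genes were called, 10 of them higher with siH2A.Z1 and 19 lower, where 21.4% and 26.6% of all genes were called. The 19 include FZD9, whose call is not read as a result, for the reason given below. The median log2 difference (siH2A.Z1 minus siH2A.Z2) was −0.29, beside −0.01 over all genes. RNF43 was 8.28-fold higher with siH2A.Z1 (3.05, SE 0.15, adjusted p = 3.08e-08). WNT7B (−3.80, SE 0.43, adjusted p = 1.96e-05), WNT5B (−2.61, SE 0.16, adjusted p = 1.39e-07), LGR4 (−2.51, SE 0.12, adjusted p = 2.47e-08), WNT10B (−2.32, SE 0.29, adjusted p = 3.61e-05) and DKK3 (−2.23, SE 0.07, adjusted p = 1.94e-09) were lower.

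By role, the receptors FZD2, FZD3, FZD4 and FZD6 were lower with siH2A.Z1 than with siH2A.Z2, and FZD1 and FZD7 were higher. FZD9, which is among the 29, was filtered out of the fits against the controls. It entered the fit of all libraries through siH2A.Z2 replicate 1 (0.925 CPM) and combined replicate 2 (0.454 CPM), so its call follows in part from the filter and is not read as a result. It rested on 3 against 32 counts, a ratio of 8.24 with an exact 95% counting interval of 2.58 to 42.0. That interval leaves out the spread between replicates. Of the ligands, WNT5A, WNT5B, WNT7B, WNT9A and WNT10B were lower and WNT2B and WNT7A higher. LRP6 (−0.81), LGR5 (−2.03), SFRP1 (−1.42), SFRP4 (−2.26), APC (−0.85), AXIN2 (−0.46) and TCF7L1 (−1.87) were lower, while ROR1 (0.91), ROR2 (0.32), DKK2 (0.41), NKD1 (0.84) and LEF1 (0.47) were higher. CTNNB1 and TCF7L2 differed by 0.04 and 0.01 and were not called. The calls of AXIN2, DKK2, FZD9, LEF1, ROR2 and WNT9A were lost when 1 of the 4 libraries was left out: siH2A.Z1 replicate 1 for DKK2, FZD9 and ROR2, siH2A.Z1 replicate 2 for AXIN2 and WNT9A, siH2A.Z2 replicate 1 for DKK2 and FZD9, and siH2A.Z2 replicate 2 for DKK2, LEF1, ROR2 and WNT9A.

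**Figure D5:**
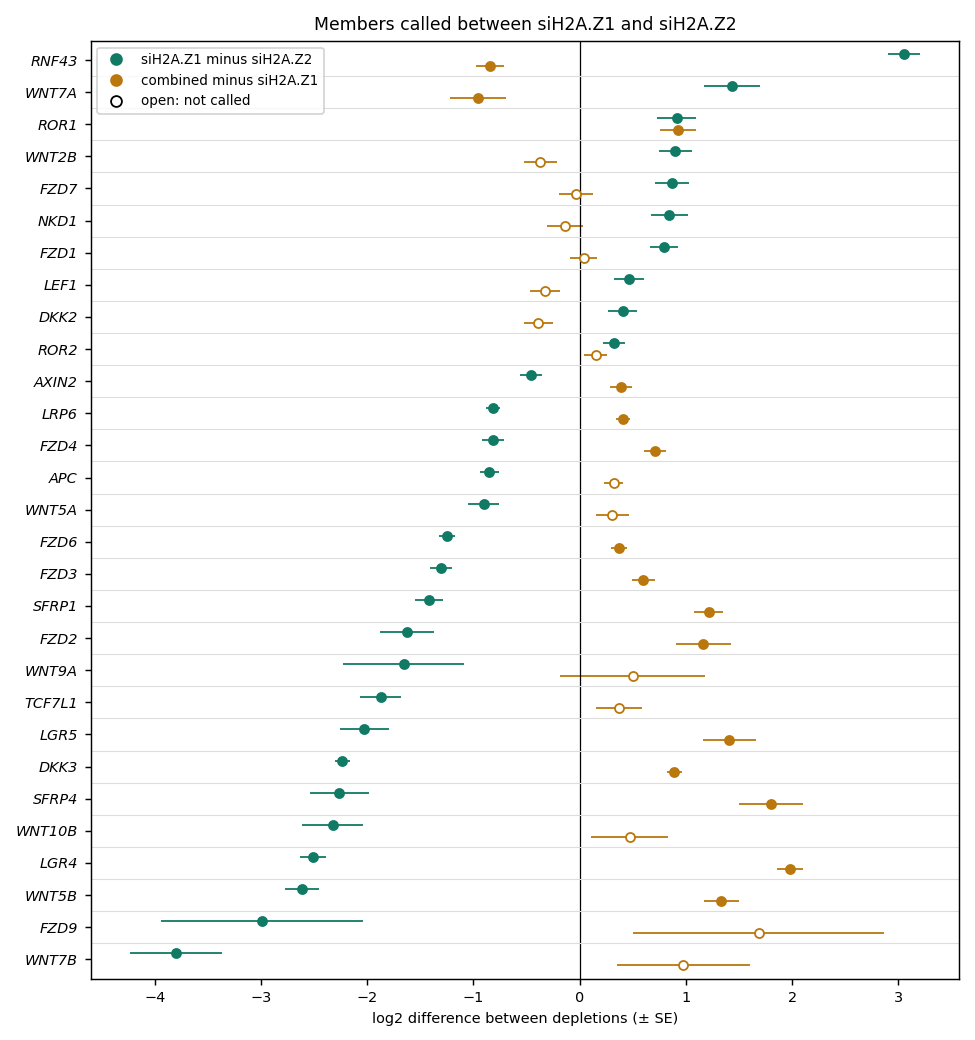
Log2 difference (± SE) of siH2A.Z1 minus siH2A.Z2 and of the combined depletion minus siH2A.Z1, for the 29 genes called in the first contrast. FZD9 is among them, and its call is not read as a result. RNF43 (3.05) and WNT7B (−3.80) mark the ends of the first contrast, and both contrasts use the siH2A.Z1 libraries with opposite sign.

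Against siH2A.Z1 alone, 13 of 45 genes were higher and 2 lower with both siRNAs, where 11.9% and 7.49% of all genes were called, and the median log2 difference was 0.31, beside 0.01 over all genes. LGR4 was 3.94-fold higher (1.98, SE 0.12, adjusted p = 3.28e-06), SFRP4 3.49-fold (1.80, SE 0.30, adjusted p = 0.0014), LGR5 2.65-fold (1.41, SE 0.25, adjusted p = 0.00196) and WNT5B 2.52-fold (1.33, SE 0.17, adjusted p = 0.00022). SFRP1 (1.21), FZD2 (1.17), ROR1 (0.93), DKK3 (0.89), FZD4 (0.71), FZD3 (0.60), LRP6 (0.40), AXIN2 (0.39) and FZD6 (0.37) were higher too. RNF43 (−0.85, SE 0.13, adjusted p = 0.000886) and WNT7A (−0.95, SE 0.26, adjusted p = 0.0226) were lower. AXIN2, FZD2, FZD6 and WNT7A lost their call when 1 library was left out, which was combined replicate 2 for all 4, combined replicate 1 for AXIN2 and WNT7A, siH2A.Z1 replicate 1 for WNT7A and siH2A.Z1 replicate 2 for AXIN2 and FZD2. H2AFZ was at 22.5 and 21.9 CPM with both siRNAs and at 19.9 and 19.1 with siH2A.Z1, a difference that was not called (adjusted p = 0.0951).

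Other components of the pathway, 55 genes listed with earlier results of these data known, were read in the same fits, with 50 tested in each comparison. With siH2A.Z1, 4 rose and 12 fell, where 12.2% and 15.7% of all genes did, with a median log2 fold change of −0.30 beside −0.02 over all genes. LGR6, a further R-spondin receptor, was called higher by 2.14 (edgeR, adjusted p = 0.014), on 48 and 37 counts against 7 to 16 in the controls. It passed the filter on low counts only through its siH2A.Z1 libraries. That call follows in part from the filter and is not read as a result. FBXW11, which recognises phosphorylated β-catenin for degradation, and the kinase CSNK1A1 rose by 0.45 and 0.42. APC2 (−2.43), DACT3 (−2.14), a Dishevelled-binding inhibitor, and KREMEN2 (−1.37), a DKK receptor, were the largest decreases among those called. APC2 had 5 and 6 counts with siH2A.Z1 and DACT3 had 8 in each library, so both passed the filter on low counts through the controls. The calls of APC2 and DACT3 follow in part from the filter and are not read as a result. None of the 50 was called with siH2A.Z2 by edgeR, and 6 had an unadjusted p under 0.05, beside 2223 of all 16188 genes tested. With both siRNAs, where 7.77% of all genes were called higher and 9.35% lower, LGR6 (2.42) and FBXW11 (0.53) rose and DVL1 (−1.18), a Dishevelled protein that relays the receptor signal, and BTRC (−0.53), the partner of FBXW11 in function, fell. The control siRNAs differed at 24 of the 50 (48%), and at 34.5% of all genes.

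Known TCF targets split in both directions. Of the targets among the 57 genes, 7 were tested with siH2A.Z1, of which RNF43 and NKD1 rose and AXIN2, LEF1, ZNRF3, LGR5 and DKK1 were not called. Of 14 tested targets outside them, 4 rose and 7 fell with siH2A.Z1, beside 12.2% and 15.7% of all genes. BMP4 (1.14), FST (1.12) and ID2 (1.04) rose, and EPHB2 (−2.89), SNAI2 (−1.83) and JUN (−1.23) fell. With both siRNAs 4 rose and 3 fell, beside 7.77% and 9.35% of all genes, with the rises again led by ID2 (1.31), FST (1.27) and BMP4 (1.12), and with SNAI2 (−1.57), EPHB2 (−1.52) and MYC (−1.10) falling. None was called with siH2A.Z2 by edgeR, with 3 at an unadjusted p under 0.05, beside 2223 of all 16188 genes tested. Between the control siRNAs 6 of the 14 differed, beside 34.5% of all genes. TNFRSF19 (2.18), CD44 (0.87), FOSL1 (0.85) and BMP4 (0.80) were higher with siCtrl 4, by log2 difference, and SNAI2 (−0.64) was lower. EPHB2 was also lower, with a mean of 68.7 CPM against 137 CPM with siCtrl 3.

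Promoter sequences (250 bases before to 50 after a start, from RefSeq on GRCh38.p14) were listed for 40 of the 57 genes, with 48 starts. The median GC content of the 48 starts was 68.5% with 28 CpG dinucleotides, against 58.7% and 14 over all 35116 promoters. The promoters of RNF43, FZD1 and TCF7L1 are shown, which are those listed among the 7 genes called with both siRNAs, with each CG in capitals. RNF43 has 2 starts, with 0 and 5 CpG and a GC content of 43.7% and 54.3%, whereas FZD1 has 25 CpG (65.7%) and TCF7L1 has 31 (74.3%).
RNF43, start within the gene, chr17:58402672-58402971, minus strand: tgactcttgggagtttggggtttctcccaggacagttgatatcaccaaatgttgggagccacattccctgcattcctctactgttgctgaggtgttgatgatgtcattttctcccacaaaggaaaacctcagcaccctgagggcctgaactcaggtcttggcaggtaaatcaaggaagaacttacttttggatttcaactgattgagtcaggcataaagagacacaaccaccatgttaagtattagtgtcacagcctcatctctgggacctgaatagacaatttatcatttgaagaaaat
RNF43, upstream start, chr17:58417485-58417784, minus strand: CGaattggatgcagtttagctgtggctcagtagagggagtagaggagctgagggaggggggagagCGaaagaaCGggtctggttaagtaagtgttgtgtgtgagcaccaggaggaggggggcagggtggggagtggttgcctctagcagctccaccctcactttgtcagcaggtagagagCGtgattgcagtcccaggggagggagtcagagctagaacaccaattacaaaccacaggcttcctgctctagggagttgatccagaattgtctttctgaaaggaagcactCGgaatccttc
FZD1, chr7:91264183-91264482, plus strand: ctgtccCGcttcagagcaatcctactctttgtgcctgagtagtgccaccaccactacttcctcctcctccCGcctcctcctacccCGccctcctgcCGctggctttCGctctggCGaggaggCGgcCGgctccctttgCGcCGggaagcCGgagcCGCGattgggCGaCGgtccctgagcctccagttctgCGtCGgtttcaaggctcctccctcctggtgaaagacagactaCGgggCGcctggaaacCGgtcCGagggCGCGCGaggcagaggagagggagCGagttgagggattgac
TCF7L1, chr2:85133142-85133441, plus strand: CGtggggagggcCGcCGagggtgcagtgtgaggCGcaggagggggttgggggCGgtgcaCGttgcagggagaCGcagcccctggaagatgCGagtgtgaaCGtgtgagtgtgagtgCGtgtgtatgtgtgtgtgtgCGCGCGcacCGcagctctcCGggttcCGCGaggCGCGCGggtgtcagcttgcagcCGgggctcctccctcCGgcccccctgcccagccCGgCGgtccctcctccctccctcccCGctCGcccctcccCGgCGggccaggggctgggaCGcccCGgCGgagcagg

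Promoters of these 48 starts were searched on both strands for the TCF/LEF words CTTTGAT and CTTTGTT, which occur in 2.62% and 5.20% of all promoters, and on the plus strand for TATAAA (7.33%). CTTTGAT was in none of them. CTTTGTT was found for DKK1, TCF7, TCF7L2 and WNT3, and TATAAA for DKK1 and FZD8. None of the 4 promoters printed above held any of these words, which says only that the letters are not in these windows. RNF43 lies at chr17:58353676-58417595 on the minus strand, FZD1 at chr7:91264433-91271326 and TCF7L1 at chr2:85133392-85310387, both on the plus strand (hg38, GENCODE v44).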

How the data were processed

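RNA was sequenced in 10 libraries of U2OS cells. Reads were mapped by the authors with STAR to hg38, and strand-specific counts per RefSeq gene were made with HTSeq 0.6.1. The deposited table holds raw counts, which were used unchanged. The authors' 3 tables of DESeq2 1.22.1 fold changes and p-values were not used.

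The members and lists were chosen with earlier results of these data known. Genes were named by rule: members called in any of the 6 comparisons, a fixed core (CTNNB1, APC, the AXIN, LRP and TCF/LEF genes), members with a mean of at least 1 CPM, and the 3 largest called changes per direction from each list. IBSP, TWIST1, HBB, SP5, APCDD1 and ASCL2 were not analysed here.

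edgeR 4.0.16 under R 4.3.3 was used for all tests (two-sided quasi-likelihood F test, TMM factors, default filterByExpr filter) and checked on simulated data. Depletions were fitted with the 4 control libraries, and other contrasts in 1 fit of all 10 libraries in 5 conditions. A gene was called at an adjusted p-value under 0.05 over all genes tested and a fold change above 1.25. The SE was taken from the F statistic, as the size of the log2 fold change over the root of F. Alternatives were other scalings, no filter, DESeq2 1.42.0, other fold thresholds, a replicate block, single control siRNAs and leaving out each library. Each library was counted as a sample. Replicates differed by more than sampling noise (chi-square per degree of freedom 4.64 to 14.7), which does not show whether they came from separate cultures. Total counts of 16716990 to 26946836 mean that genes under 10 counts carry large counting error.

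GENCODE v44 (hg38) gave positions, 3′UTRs and the length of all annotated exons of a gene, which can exceed that of the RNA made in these cells. All 57 members matched it. Promoters came from RefSeq (GRCh38.p14), and siRNA sequences from the study's list. Python 3.11.15, pandas 2.3.3 and matplotlib 3.10.9 were used.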

Additional observations from a re-analysis of the deposited data

Results flagged for a closer look

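LEF1 was the 1 gene of 40 tested whose 4 control libraries held an outlying value. siCtrl 4 replicate 1 had 8.54 CPM, below the other control libraries at 9.42 to 9.49 CPM, and its gap to the nearest made up 0.92 of the whole range. Chance alone marks about 5% of such groups of 4, so 1 of 40 is no more than chance gives.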

How the results depend on the processing

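The numbers of WNT pathway genes called stayed within 1.5 times under the other scalings, without the filter and with no fold threshold, in all 6 comparisons. With DESeq2 the count was 5 for siH2A.Z2 and 11 for both siRNAs. With a fold above 2 it was 0 for siH2A.Z2, 4 for both, 16 for siH2A.Z1 minus siH2A.Z2, 6 for combined minus siH2A.Z1 and 11 between control siRNAs. With siCtrl 3 alone as control it was 28, 9 and 21 for siH2A.Z1, siH2A.Z2 and both, and with siCtrl 4 alone 21, 19 and 24. The shares of all genes called under these settings are not given, so the counts are not read as a result about the pathway genes. The cause of the larger counts was not tested, and the pooled control includes the difference between siRNAs in its spread. When 1 library was left out, the counts ran from 6 to 15 for siH2A.Z1, were 0 in each of the 6 cases for siH2A.Z2, and ran from 1 to 8 for both siRNAs, 25 to 30 for siH2A.Z1 minus siH2A.Z2, 11 to 15 for combined minus siH2A.Z1 and 16 to 21 between control siRNAs.

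Where a gene was called with the pooled controls or under the alternative, its direction reversed only under the choice of control siRNA, among the alternatives run. Differences called under neither could also change sign when 1 library was left out, as for WNT6, NKD2 and FRZB in siH2A.Z1 minus siH2A.Z2. Log2 fold changes against siCtrl 3 alone were 0.76 for FZD8 with siH2A.Z1, 1.25 for DKK2 with siH2A.Z2, and 1.27 for DKK2 and 0.61 for FZD8 with both siRNAs. Against siCtrl 4 alone they were −0.58 for DKK2, 0.41 for H2AFV and 1.24 for WNT10A with siH2A.Z1, −0.45 for WNT5B with siH2A.Z2 and 1.39 for WNT10A with both.

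The labels give equal replicate numbers across conditions but no shared culture or day, and deviations of equally numbered libraries correlated between −0.41 and 0.43. With the replicate block the counts were 14, 0 and 6 for siH2A.Z1, siH2A.Z2 and both, 29 and 16 for the contrasts between depletions, and 20 between control siRNAs. With the numbers of the combined libraries crossed, an alternative chosen after seeing the data, combined minus siH2A.Z1 gave 17.

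Scaling by library size only moved the median of all genes by 0.10 with siH2A.Z1 and 0.11 for siH2A.Z1 minus siH2A.Z2, and upper-quartile factors by 0.10 for the latter. With 2 libraries per condition the spread rests on few samples, and for WNT7B, FZD9 and genes under 1 CPM the depth limits the size of any change.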

Other observations

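Genes of WNT secretion and of planar cell polarity, the branch of the pathway that orients cells without β-catenin, were also measured. WLS, which carries WNT proteins to the cell surface, fell with siH2A.Z1 by 0.42 on the log2 scale (edgeR, adjusted p = 0.0155), from 93.8 CPM as the mean of the 4 controls to 70.8 CPM. PORCN, which attaches the lipid to WNT proteins, had a log2 fold change of −0.59 and was not called (adjusted p = 0.0924). These genes were chosen after their values were seen.

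Of the polarity genes, VANGL1 (−0.56), PTK7 (−0.52), PRICKLE2 (−1.16), DAAM1 (−0.89) and DAAM2 (−1.18) fell with siH2A.Z1, while VANGL2 (−0.13), CELSR2 (−0.55), CELSR3 (0.28), RYK (0.13) and PRICKLE1 (0.15) were not called. With both siRNAs PRICKLE2 stood at −0.48, DAAM1 at −0.58 and DAAM2 at −0.44, none of which was called. PTK7, PRICKLE2, DAAM1 and DAAM2 also differed between the control siRNAs, by 0.34, 0.37, 0.68 and −0.64.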
